A study of Mus musculus with 10 samples.

Results

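Sperm methylomes of vehicle-treated males of the P-generation were compared with those of F3 males of the vehicle lineage, 2 animals against 2. No animal of this comparison received decitabine, so it measures how far spermatozoal DNA methylation varied between generations and between animals without the drug. The P males C14 and C8 were C57Bl/6 mice given the vehicle, 7.5% DMSO in PBS, by intraperitoneal injection. Injections began at 7 weeks of age, were given 3 times weekly and lasted 7 weeks, and the males were then mated with untreated females. The F3 males F3C30 and F3C9 were uninjected, unmated descendants through the male line, F3C30 of C14 and F3C9 of C8. The remaining 6 of the 10 animals of the series served only as animals that the comparison did not use. D10, D11 and D13 were P males injected with 0.1 µg decitabine per g body weight. F3D1 and F3D31 were uninjected F3 descendants of D10, and F3D7 was one of D11. No F3 animal of the series descended from D13. Tissue was taken from P males at 15 weeks and F3 males were analysed from 14 weeks of age. Generation, vehicle injection, mating history and breeding with females of another supplier all change together between the 2 groups and cannot be told apart.

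Reduced representation bisulfite sequencing (RRBS) reads DNA cut at CCGG by MspI, so it samples CpG-rich fragments, and counts reads with a methylated or an unmethylated cytosine at each CpG. Both strands of a CpG were summed, and autosomal CpGs with at least 10 reads in all 4 animals were kept. This gave 949876 CpGs, of 1670600 autosomal CpGs listed for any of the 4 animals and 2080745 CpGs listed for any of the 10. The median number of reads at the kept CpGs was 56 in C14, 39 in C8, 53 in F3C30 and 62 in F3C9. C8 was the shallowest library, with a summed coverage of 51957592 against 69111757 to 80811307 in the other 3.

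Spermatozoa carry a germline methylome. CpG islands at promoters are nearly free of methylation, most CpGs outside islands are almost fully methylated, and sites of intermediate level are few. Imprinted genes receive their parental marks in the germ line, so that maternally methylated imprinted promoters are unmethylated in sperm while a small set of paternally methylated control regions is methylated. Promoters of germline genes, unmethylated in germ cells, become methylated in somatic cells. A level measured in a sample is an average over its cells, so a change of cell mix and a change within cells cannot be told apart.

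The labelled cell type was checked against these loci first. The paternally methylated H19 control region read 94.3% in C14, 95.1% in C8, 92.4% in F3C30 and 86.5% in F3C9, over 3 CpGs. At the Dlk1-Meg3 intergenic region the levels were 92.1%, 89.6%, 96.1% and 82.5% over 8 CpGs, and at the Rasgrf1 control region 71.1%, 71.2%, 76.9% and 74.4% over 3 CpGs. All 3 regions were thus high in each animal. The 15 of 24 listed maternally methylated imprinted promoters with enough CpGs had medians of 8.08% in C14, 20% in C8, 10.1% in F3C30 and 14.5% in F3C9. C8 was the highest of the 4 animals at 10 of the 15 and C14 the lowest at 9. Peg3 and Usp29 share the same CpGs, as do Sgce and Peg10, so their reads are counted for each gene. C8 was the highest and C14 the lowest at both shared windows. The 18 of 27 listed germline promoters had medians of 16.3%, 24.9%, 13.1% and 24.5% in the same order. C8 was the highest of the 4 at 10 of these 18 and the lowest at 3, and F3C9 was the highest at 6 and the lowest at 0. Both list medians were above the 0.795% to 1.01% of the housekeeping promoters in each animal, and higher in C8 and F3C9 than in C14 and F3C30. Single members were not, as Inpp5f read 0.803% to 1.35% and Hsf2bp 0.253% to 1.04% at their annotated gene starts. Whether the window at a gene start covers the imprinted methylated part of a locus was not checked.

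Single genes went both ways. Ddx4, the RNA helicase that marks germ cells, read 16.4% in C14, 42.1% in C8, 15.9% in F3C30 and 27.2% in F3C9. For Piwil2, a PIWI protein of the piRNA pathway, the values were 16.1%, 50.7%, 9.57% and 28.9%. Rpl10l, the testis copy of a ribosomal protein gene, read 23.6%, 66.7%, 23.2% and 28.6%. Among imprinted promoters, the window shared by Peg3 and Usp29 read 4.95%, 37.5%, 15% and 12.2%, and that shared by Sgce and Peg10 3.27%, 21.6%, 4.56% and 14.5%. C8 was the lowest animal at Airn, the antisense RNA of the Igf2r locus, with 15.4%, 0%, 10.1% and 15%. It was also the lowest at Mael, a piRNA pathway gene, with 16.9%, 11.5%, 12.1% and 24.3%, and at Zfp42, with 25%, 23.7%, 24.9% and 32.1%. At Slc25a31, the germ cell ADP/ATP carrier, F3C9 was the highest with 34.4% and C8 read 24.6%. In the decitabine lineage the germline promoters had medians of 26.4%, 30.6% and 21.5% in D10, D11 and D13 and 22.5%, 16.4% and 14.7% in F3D1, F3D31 and F3D7. The marker level therefore differed between animals of a group, and the part it has in the differences described here was not tested.

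**Figure D1:**
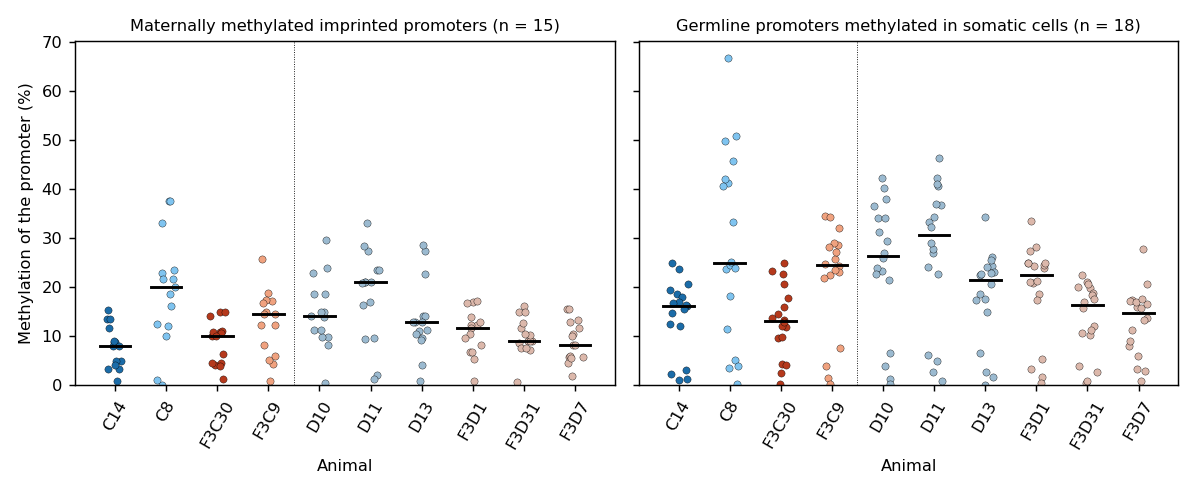
Methylation in percent (vertical axis) of 15 maternally methylated imprinted promoters and 18 germline promoters in each of the 10 animals (horizontal axis), with a bar at the median. C8 reaches 37.5% in the first list and 66.7% in the second, above the highest promoter of C14 at 15.4% and 25%.

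Averaged over the kept CpGs, methylation was 29.12% in C14, 29.10% in C8, 28.99% in F3C30 and 29.20% in F3C9. The 2 P animals had a mean of 29.11% ± 0.0155 and the 2 F3 animals one of 29.09% ± 0.145 (SD, n = 2 each). The difference, F3 minus P, was -0.0129 percentage points, smaller than the spread between the F3 animals (two-sided exact permutation test, p = 1.00, where the smallest p that 2 against 2 animals allow is 0.333).

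The shares of CpGs at the ends of the scale spread further than the means. C14 had 46.2% of its CpGs at 0%, F3C30 47.2%, F3C9 49.8% and C8 56.1%. At the other end, 6.41% of CpGs were fully methylated in C14, 8.18% in F3C30, 10.4% in F3C9 and 16.2% in C8. CpGs between 20% and 80% made up 9.26%, 8.97%, 12.2% and 13.4% of C14, F3C30, F3C9 and C8. With reads thinned to an equal summed coverage, C8 still had 56.5% of CpGs at 0% and 15.7% at 100%, and C14 48.5% and 7.56%.

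Pairs of animals were then compared CpG by CpG with a logistic likelihood-ratio test, calling a difference of at least 25 percentage points at a Benjamini-Hochberg q-value under 0.01. For a pair this compares the reads of 2 libraries, not conditions. Between C14 and C8, the 2 males of the P-generation, 40936 CpGs were called (4.31% of those kept). Between F3C30 and F3C9 the number was 10063 (1.06%). The 4 pairs across generations ranged from below to above both within-generation pairs. C8 differed from F3C30 at 45148 CpGs (4.75%) and from its descendant F3C9 at 46359 (4.88%), C14 differed from F3C9 at 6986 (0.735%), and C14 and its descendant F3C30 differed at only 190 (0.0200%). All 3 pairs with C8 thus stood above the 3 pairs without it, and the closest pair of the 6 was a P male with an F3 male.

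Distances over all kept CpGs, taken as 1 minus Pearson's correlation coefficient across CpGs, again put the 3 pairs with C8 apart from the others. The values were 0.0115 for C14 and F3C30, 0.0206 for C14 and F3C9, 0.0235 for the F3 pair, 0.0533 for the P pair, 0.0560 for C8 and F3C9 and 0.0574 for C8 and F3C30. After thinning to equal coverage the called CpGs fell to 32722 for C14 and C8, 3795 for the F3 pair and 74 for C14 and F3C30, and the 3 pairs with C8 stayed the highest. With 1 descendant per male, a closeness of C14 to F3C30 by descent and a closeness of these libraries for any other reason cannot be told apart, and the other pair of this kind, C8 and F3C9, had the most calls of the 6 with all reads.

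**Figure D2:**
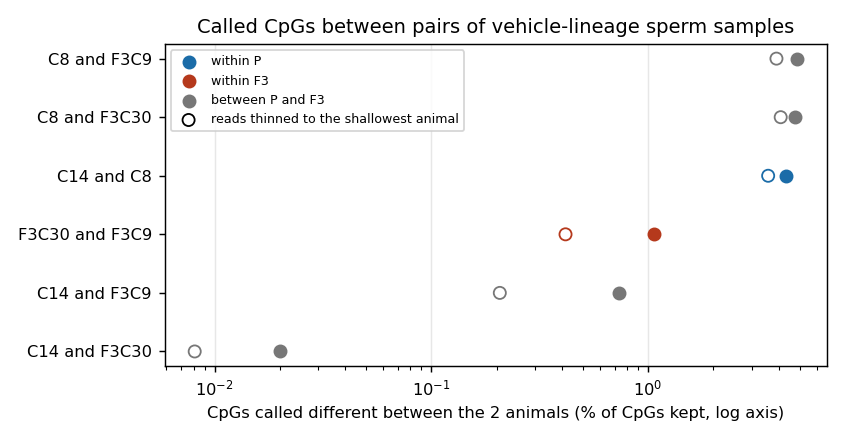
Share of the kept CpGs called different between the animals of each of the 6 pairs (horizontal axis, percent, log axis), filled for all reads and open for reads thinned to the shallowest animal, coloured by the kind of pair. The 3 pairs with C8 lie between 4.31% and 4.88% with all reads, and C14 with F3C30 lies at 0.0200%.

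Against this variation between animals, P and F3 were compared with the same model on the pooled reads of each group. The test called 7467 CpGs (0.786% of those kept), 4096 higher in F3 and 3371 higher in P. This model has no term for variation between animals, and its calls were fewer than those between the 2 P animals alone. The P and F3 animals did not overlap at 5985 of the 7467, or 80.2%, which the choice of these CpGs by a difference between the same animals favours. Of all kept CpGs 13.6% did not overlap. Over all kept CpGs, 46.2% in C14 to 56.1% in C8 had no methylated read, and animals of equal level cannot be apart. The shares are therefore descriptions and do not show that the calls hold animal by animal. C8 was the animal furthest from the median of the 4 at 5628 of the called CpGs, F3C9 at 1431, F3C30 at 265 and C14 at 143. At the called CpGs the median absolute difference from the F3 mean was 49.8 points for C8 and 16.4 points for C14.

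Without C8, 760 CpGs were called between C14 and the 2 F3 animals (0.0800%), 372 higher and 388 lower in F3. Without C14 the number was 47858. The CpGs called in the same direction with and without C8 numbered 378 (0.0398%), 164 higher and 214 lower in F3, with a median absolute difference of 33.2 points between groups and 9.88 points between C14 and C8. With an overdispersion term for each CpG, which uses the spread between animals, 0 CpGs were called, and 327 had a difference of at least 25 points at an unadjusted p under 0.05. With 2 animals a group this test could hardly reach the q-value needed over all CpGs, so its 0 does not bear on the calls. limma per CpG also called 0, with 39659 of all CpGs at an unadjusted p under 0.05.

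The decitabine lineage was not used in these calls. Its P males received the drug and its F3 males did not, so its step from P to F3 is not that of the vehicle lineage, and drug and generation cannot be told apart in it. Of the 7467 called CpGs, 6490 had a difference other than 0 between its 3 P and 3 F3 animals, and 63.6% of these had the direction of the vehicle lineage, against 51.7% over all kept CpGs with a difference in both. The CpGs called without C8 had that direction in 38.0% and those called with and without C8 in 41.8%. Of the 378, 349 had at least 10 reads in all 10 animals. In the decitabine lineage 18 of these differed by at least 25 points in the same direction and 4 in the opposite one. Over all 892267 kept CpGs so covered, 2863 and 2072 did. The called CpGs were not matched to all CpGs for level. At 26 of the 349, P and F3 did not overlap in either lineage with the same direction, and at 23 with the opposite direction. In the vehicle lineage alone 300 of the 349 were apart, which their choice favours. The same counts over all CpGs were not made, so the 26 and 23 are descriptions. At the germline promoters C8, D10 and D11 had the highest medians of the 5 P animals, and their part in these shares was not tested.

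Calls were most frequent at CpGs of intermediate methylation, where a difference of 25 points has the most room. Binned by the level in the 6 decitabine-lineage animals, which the comparison did not use, 0.0387% of CpGs at 0 to 10% were called between P and F3, 4.95% at 60 to 70% and 0.527% at 90 to 100%. Without C8 these shares were 0.00354%, 0.553% and 0.0436%. Relative to counting error the scatter varied less with level than the call shares did. The root mean square difference of C14 and C8 was 2.27 times its counting error at 0 to 10%, 2.84 times at 20 to 30%, 2.43 times at 40 to 50%, 2.62 times at 60 to 70% and 2.45 times at 90 to 100%. Binned by the mean of the 4 animals instead, it ran from 1.71 times at 90 to 100% to 2.99 times at 40 to 50%. In CpGs at 20 to 30%, the 4 animals read on average 20.8% in C14, 34.9% in C8, 19.1% in F3C30 and 28.1% in F3C9. In CpGs at 60 to 70% they read 69.1%, 60.5%, 69.0% and 65.1%. C8 and, less far, F3C9 were thus higher than C14 and F3C30 where levels were low and lower where levels were high, in each case nearer to 50%.

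**Figure D3:**
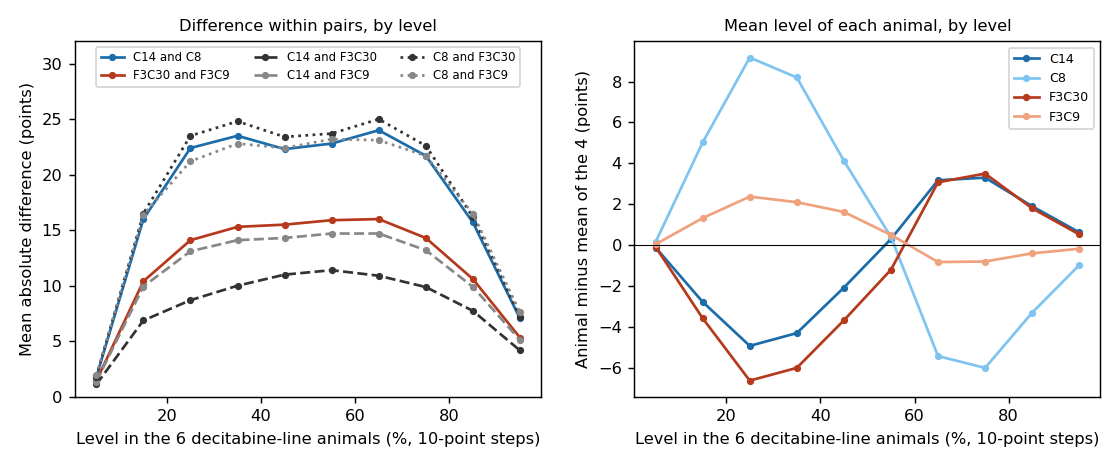
CpGs in 10-point steps of the level in the 6 decitabine-lineage animals (horizontal axis, percent). The left panel gives the mean absolute difference in percentage points for each of the 6 pairs, and the right panel the mean level of each animal minus the mean of the 4. Pairs with C8 are the highest in the left panel, and at 20 to 30% C8 averages 34.9% where C14 averages 20.8%.

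The share of called CpGs also differed between annotations. Promoter CpGs, within 1000 bp before to 500 bp after a gene start, averaged 3.48% in C14 and were called between P and F3 in 0.168%. Coding exons were called in 1.08%, other exons in 0.567%, introns in 1.19% and intergenic CpGs in 1.79%. Without C8 the shares were 0.0203% in promoters, 0.122% in coding exons, 0.0539% in other exons, 0.111% in introns and 0.181% in intergenic sequence. Among CpGs with a mean level of 20 to 80% the shares lay close together, at 5.19% in promoters, 5.13% in coding exons, 4.60% in other exons, 5.84% in introns and 5.34% in intergenic sequence. Introns were the highest of these with C8, whereas without it promoters were, at 0.617% against 0.494% in introns. CpG-poor sequence with under 5 CpGs in 200 bp was called in 1.90% and sequence with 20 or more CpGs in 0.0436%. By chromosome the share ranged from 0.689% on chromosome 11 to 0.856% on chromosome 10. Soft-masked repeats were called in 1.13% and other sequence in 0.755%.

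The animals also differed in how far single CpGs scattered. The mean squared differences of the 6 pairs were split into a part for each animal, counting error included. At CpGs of 40 to 60% in the decitabine lineage this gave an SD of 9.79 points in C14, 12.8 in F3C30, 14.4 in F3C9 and 25.9 in C8. The harmonic mean number of reads at these CpGs, which sets the counting error, was 45.1, 41.2, 44.8 and 27.8. After thinning, the SD was 10.6, 13.3, 15 and 25.6 points. C8 was thus the highest with all and with thinned reads. With all reads, counting error alone would give these SDs at 25.7 reads in C14, 15.1 in F3C30, 11.8 in F3C9 and 3.68 in C8. The SD was thus above the counting error of the reads in each animal. In the rest, differences between animals and between libraries cannot be told apart. RRBS reads without molecular identifiers do not tell copies of a molecule from separate molecules, so any interval given here covers counting error only.

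Differences of close CpGs ran along MspI fragments. For C14 minus C8, differences of CpGs 2 to 20 bp apart correlated at 0.775 on the same fragment (13180 pairs of CpGs) and at 0.306 on different fragments (332 pairs). The values for F3C30 minus F3C9 were 0.750 and 0.173, and those for C14 minus F3C30 0.696 and 0.112. The contrast ended with distance. At 50 to 100 bp C14 minus C8 correlated at 0.246 on the same and 0.292 on different fragments, and at 100 to 300 bp at 0.129 and 0.228. For F3C30 minus F3C9 the values at 100 to 300 bp were 0.0917 and 0.196. CpGs on a fragment share reads, so these correlations across CpGs of the same libraries are descriptions. Neighbouring CpGs of a fragment are therefore no independent evidence of a difference.

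Regions were formed from runs of at least 3 kept CpGs with neighbours at most 100 bp apart, and tested with limma, which uses the spread between animals. With 2 animals a group, limma can call only large differences, so a count of 0 does not show that the groups are alike. Of 84002 regions, with a median of 4 CpGs and 93 bp, 0 were called between P and F3 at an adjusted p under 0.05 (0%), and 2728 had an unadjusted p under 0.05, or 3.25%. Without C8 1765 did. The P and F3 animals did not overlap at 28.6% of the regions. Order alone would part 2 against 2 interchangeable animals without ties at a share of 0.333, so 28.6% is only a description. The gap was at least 10 points at 248 regions higher in F3 and 295 higher in P, and at least 20 points at 15 and 27. The regions with a gap of at least 10 points had the same direction in the decitabine lineage in 60% (326 of 543), against 54.1% over all regions.

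Between single animals, regions moved further in all 3 pairs with C8 than in the other 3. C14 and C8 differed by at least 25 points at 5278 regions (6.28%) and F3C30 and F3C9 at 1432 (1.70%). Across generations, C8 and F3C30 did so at 5988 (7.13%), C8 and F3C9 at 4297 (5.12%), C14 and F3C9 at 1035 (1.23%) and C14 and F3C30 at 220 (0.262%). A range of at least 25 points over the 4 animals was found at 8669 regions, and C8 was furthest from the median at 6506 of them. Without C8 the number was 1999, or 2.38% of all regions.

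The 10 regions with the largest gap in each direction are described next, with limma's fit on the log2 ratio of methylated to unmethylated reads. All 20 had an adjusted p of 1.000 in limma. An intron of Llgl2, a scaffold of cell polarity, had the largest gap among regions higher in F3 (chr11:115831090-115831121, GRCm38). It read 32.7% in C14, 40.0% in C8, 78.0% in F3C30 and 71.4% in F3C9, with 41 to 60 reads summed over its 3 CpGs (log2 difference 2.27 ± 0.77 SE, n = 2 each). The decitabine-lineage animals lay between 56.7% and 89.7% there, without a gap between generations. The genomic sequence is given because its 3 CpGs, in capitals, start at an MspI site. It is the plus strand of chr11:115831060-115831151.
Llgl2: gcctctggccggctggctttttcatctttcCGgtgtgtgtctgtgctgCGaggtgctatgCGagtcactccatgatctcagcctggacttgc

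A coding exon of Pglyrp2, which encodes a peptidoglycan-hydrolysing amidase, read 22.1% in C14, 0% in C8, 50.9% in F3C30 and 58.0% in F3C9. An intron of Oplah, encoding 5-oxoprolinase of glutathione turnover, read 27.6%, 24.0%, 55.8% and 67.1%. An intron of Il1r2, a decoy receptor of interleukin 1, read 34.6%, 36.3%, 61.5% and 63.1% with 237 to 407 reads summed over 5 CpGs. In Il1r2 both groups were tight, but the decitabine-lineage animals lay between 45.0% and 58.5% in both generations. A region 4735 bp upstream of Rxfp1, the relaxin receptor, read 60.7%, 42.4%, 86.1% and 87.5%. One at the promoter of Stx4a, a syntaxin of vesicle fusion, read 30.1%, 25.7%, 52.9% and 58.6%. The others lay near Bbs5 and Plet1, upstream of Mef2d, and in 2610027K06Rik near Tbx2, where C8 was at 0% and the other 3 animals between 62.4% and 89.7%.

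The region 1651 bp upstream of Mef2d, a MADS-box transcription factor, was the member of this set whose generation gap also appeared in the decitabine lineage (chr3:88140718-88140736). It read 14.2% in C14, 8.89% in C8, 36.0% in F3C30 and 43.5% in F3C9. D10, D11 and D13 read 13.2%, 10.6% and 13.2%, and F3D1, F3D31 and F3D7 read 43.1%, 43.0% and 28.2%. All 5 P animals were thus below all 5 F3 animals. The fit gave 2.31 ± 0.78 (SE), with an unadjusted p of 0.0187 in limma and 0.0560 without C8. Its 4 measured CpGs are in capitals in the plus strand of chr3:88140688-88140766, and the last of them lies in the CCGG cut by MspI.
Mef2d: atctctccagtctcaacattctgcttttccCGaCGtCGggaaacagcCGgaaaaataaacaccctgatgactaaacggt

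That last CpG, at position 88140735, carried the largest part of the difference. It was methylated in 9 of 37 reads in C14 (24.3%, 95% Wilson interval 13.4 to 40.1%), 8 of 45 in C8 (17.8%, 9.29 to 31.3%), 40 of 50 in F3C30 (80%, 67.0 to 88.8%) and 16 of 23 in F3C9 (69.6%, 49.1 to 84.4%). The P animals of the decitabine lineage lay between 17.6% and 32.5% and its F3 animals between 59.0% and 64.7%. The other 3 CpGs of the region were between 0% and 17.8% in C14 and C8 and between 14% and 43.5% in F3C30 and F3C9.

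Among regions higher in P, the largest gap was intergenic, 43176 bp downstream of the start of Ccr1, a chemokine receptor (chr9:123925487-123925547). It read 54.9% in C14, 61.8% in C8, 17.1% in F3C30 and 9.30% in F3C9 (log2 difference -3.26 ± 0.80 SE). With 768 to 2916 reads summed over its 5 CpGs it was the deepest of the 20 regions. The read number moved with the level, at 1510 and 2916 in the P animals and 768 and 817 in the F3 animals. D10 read 58.2%, D11 35.7% and D13 26.9%, and F3D1, F3D31 and F3D7 18.3%, 17.6% and 12.9%. Again all 5 P animals were above all 5 F3 animals. The sequence, plus strand of chr9:123925457-123925577, is shown because its 5 CpGs behaved differently along it.
Ccr1: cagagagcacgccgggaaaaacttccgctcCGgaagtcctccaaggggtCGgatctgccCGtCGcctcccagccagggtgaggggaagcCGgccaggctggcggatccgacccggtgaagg

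The first 3 CpGs in capitals separated P from F3. At the third, C14 read 59.1%, C8 61.5%, F3C30 16.4% and F3C9 6.6%. At the fourth, 3 bp further on, C14 read 0% of 140 reads and C8 51.4% of 552 reads, and F3C30 and F3C9 read 0.645% and 0%. The last CpG read 0%, 46.2%, 1.30% and 3.08%. D10 resembled C8 at these 2 CpGs with 45.6% and 56.3%, and the other 5 decitabine-lineage animals were at or below 7.04%.

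A coding exon of Col6a3, a chain of collagen VI, read 97.4% in C14, 100% in C8, 70.5% in F3C30 and 68.9% in F3C9 (log2 difference -4.50 ± 0.84 SE). All 6 decitabine-lineage animals lay between 84.4% and 97.8% there, close to the P animals. An intron of Pcsk2, a protease that processes prohormones, read 84.5%, 85.0%, 50% and 44.4%, with the decitabine-lineage animals between 76.7% and 98.8%. In both genes the low level was found in F3C30 and F3C9 alone of the 10 animals. A region 24011 bp upstream of Kdr, a receptor of vascular endothelial growth factor, read 43.6%, 37.2%, 1.82% and 6.12%. An exon of 1810046K07Rik read 46.2%, 48.8%, 16.6% and 19.7%. The remaining regions lay near Dclre1a and Slc45a1, at the start of Gm38135, and in introns of Casz1 and the agouti gene.

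**Figure D4:**
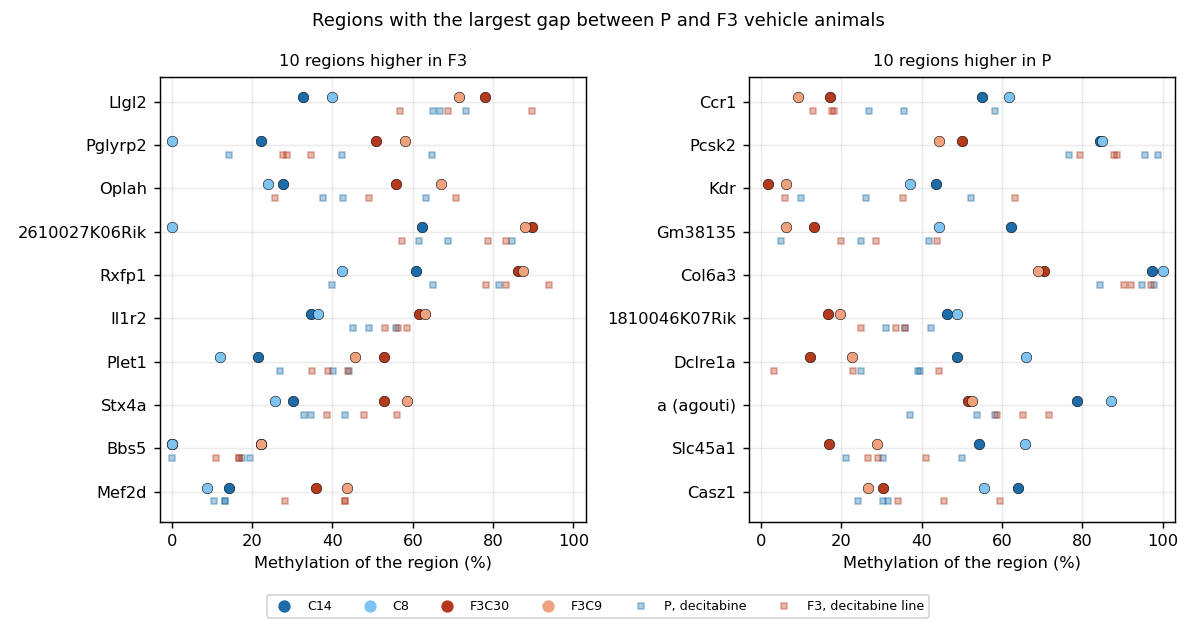
Methylation in percent (horizontal axis) at the 10 regions with the largest gap in each direction, with a circle for each of the 4 vehicle-lineage animals and a square for each of the 6 decitabine-lineage animals. The squares of P and F3 overlap at most regions and are apart in the direction of the circles at Mef2d and Ccr1.

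CpGs were then sought at which the 5 P animals of both lineages did not overlap the 5 F3 animals, a set chosen after values were seen and given without a test. F3D1 and F3D31 both descend from D10, so the 5 F3 animals are not 5 separate lines of descent. Of 892267 CpGs covered in all 10 animals, 4455 were separated (0.499%), 54 by at least 10 points and 3 by at least 20 points. The 3 were the Mef2d CpG above, 1 in an intron of Acacb and 1 in an intron of Zzz3. Of the 378 CpGs called with and without C8, 24 were among the separated.

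The CpG in Zzz3, a subunit of a histone acetyltransferase complex, had the largest separation (chr3:152452350-152452351). C14 was methylated in 28 of 29 reads (96.6%, 95% Wilson interval 82.8 to 99.4%) and C8 in 19 of 19 (100%, 83.2 to 100%). F3C30 was methylated in 11 of 27 (40.7%, 24.5 to 59.3%) and F3C9 in 0 of 16 (0%, 0 to 19.4%). D10, D11 and D13 were all at 100% and F3D1, F3D31 and F3D7 all at 0%. The CpG 7 bp upstream, on the same reads, stayed between 83.7% and 100% in all 10 animals. In the plus strand of chr3:152452320-152452381 both CpGs are in capitals, and the second is the one that changed. Bisulfite reads give a T for an unmethylated cytosine and for a genomic T, which cannot be told apart in these counts.
Zzz3: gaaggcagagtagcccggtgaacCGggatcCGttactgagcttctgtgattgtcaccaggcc

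The CpG in Acacb, the mitochondrial acetyl-CoA carboxylase, read 30.8% of 52 reads in C14, 0% of 11 in C8, 76.2% of 42 in F3C30 and 58.0% of 50 in F3C9 (chr5:114199603-114199604). The P animals of the decitabine lineage read 14.3% to 27.1% and its F3 animals 62.5% to 85.7%. The CpG 20 bp before it read 46.5% in C14, 71.0% in C8, 70.7% in F3C30 and 53.6% in F3C9, so that C8 alone overlapped the F3 animals, and the decitabine lineage was apart there with 33.3% to 47.4% in P and 68.9% to 78.1% in F3. The CpG 11 bp after it overlapped in both lineages. In the plus strand of chr5:114199573-114199634 it is the middle one of the 3 in capitals.
Acacb: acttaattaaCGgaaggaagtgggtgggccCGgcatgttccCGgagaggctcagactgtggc

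Efl1, a GTPase of ribosome maturation, held the most CpGs called with and without C8, at 5, all within an intron. In the sequence shown, 4 of these CpGs within 17 bp moved together. The first of these read 61.8% in C14, 38.9% in C8, 19.2% in F3C30 and 23.5% in F3C9, with 51 to 186 reads. The decitabine-lineage P animals read 44.9%, 79.0% and 52.4% and the F3 animals 12.3%, 14.3% and 13.6%. The CpG 19 bp before it, in a CCGG, read 20.9%, 81.8%, 20.3% and 63.5% and so split C8 and F3C9 from C14 and F3C30. The sequence is the plus strand of chr7:82771245-82771322.
Efl1: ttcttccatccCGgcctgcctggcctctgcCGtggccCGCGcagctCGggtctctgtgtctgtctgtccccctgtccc

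Smaller separations in all 10 animals lay in an exon of Rcan1, a calcineurin regulator, where P animals read 61.1% and 76.2% and F3 animals 29.3% and 29.6%, and at the promoter of Mir142, a microRNA gene of blood cells, with 25% and 57.1% against 1.92% and 3.85%. At the promoter of Myl9, a myosin light chain, the levels were 24.0% and 30.4% against 0% and 7.35%. In an intron of Mtmr7 they were 65.2% and 63.0% against 86.0% and 84.5%.

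**Figure D5:**
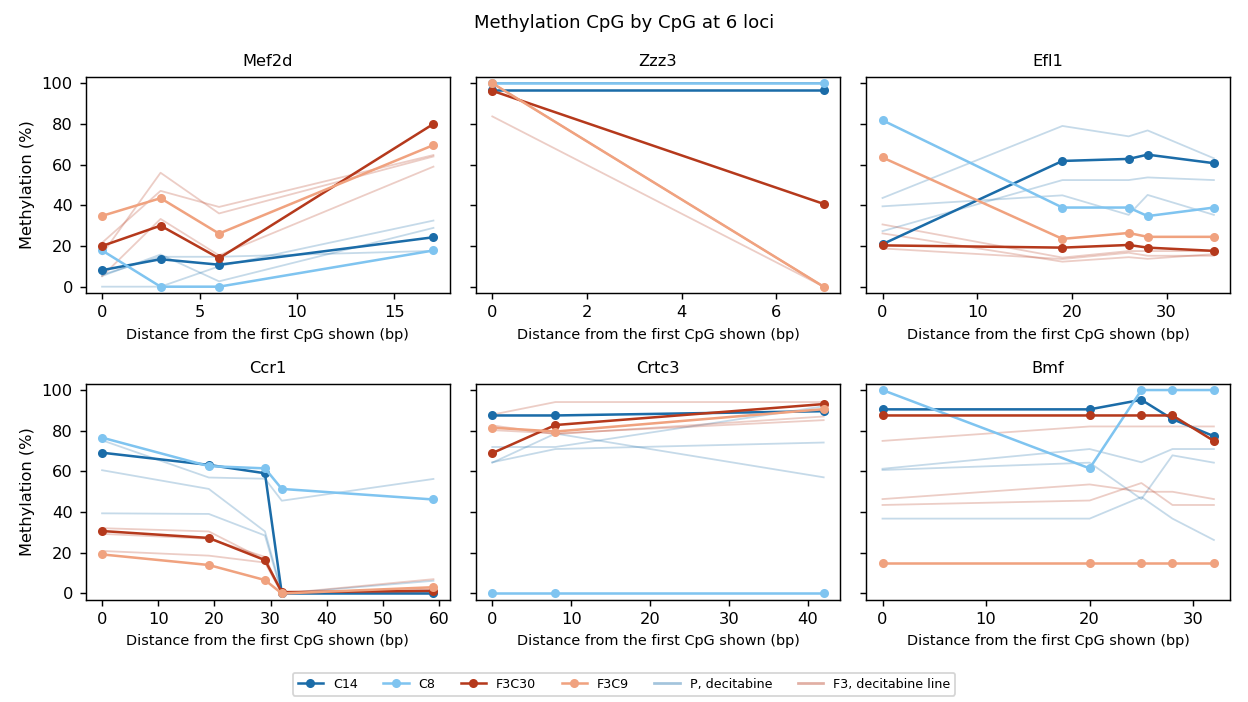
Methylation in percent (vertical axis) of each measured CpG by its distance in bp from the first one shown, at 6 loci, for the 4 vehicle-lineage animals (points and lines) and the 6 decitabine-lineage animals (pale lines). At Zzz3 only the second CpG differs between generations, at Crtc3 C8 is at 0% throughout, and at Bmf F3C9 is at 14.8% throughout.

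The regions with the largest difference between C14 and C8 were chosen among those where the F3 animals lay within 10 points of each other, a choice that favours levels near 0% and 100%. An intron of Crtc3, a coactivator of CREB, read 88.2% in C14, 0% in C8, 81.6% in F3C30 and 83.9% in F3C9. A coding exon of Tnfrsf9, a receptor of T cells, read 15.2%, 100%, 18.1% and 26.3%. C8 was at 0% or 100% in 6 of the 8 regions, among them those near Osbp and in C1qtnf2 and Wwc2, and at 92.6% and 83.3% at n-R5s34 and Shcbp1l. Reads are summed over the 3 CpGs of a region here, so a read can count more than once. Those of C8 were fewer than those of C14 at Crtc3, at 36 against 144, and at Tnfrsf9, at 39 against 165. They were not fewer at C1qtnf2, at 48 against 30, and hardly so at Shcbp1l, at 72 against 73. Crtc3 is shown, plus strand of chr7:80675906-80676009, because its 3 CpGs were unmethylated in each of the 12 reads of C8.
Crtc3: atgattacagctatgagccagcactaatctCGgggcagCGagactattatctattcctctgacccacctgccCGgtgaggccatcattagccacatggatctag

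The regions that separated F3C30 from F3C9 while C14 and C8 lay within 10 points were less extreme, with neither F3 animal at 0% or 100%. An intron of Bmf, a pro-apoptotic protein, read 85.0% in F3C30 and 14.8% in F3C9, with 87.7% in C14 and 92.3% in C8. All 5 CpGs of F3C9 were at 14.8% with 27 reads. A coding exon of Dlc1 read 24.7% and 75.9%, an exon of Plch2, a phospholipase C, 10.8% and 60.7%, and an intron of Prkg1, a cGMP-dependent kinase, 38.3% and 85.9%. The others lay at 3732407C23Rik and Gm8843, near Castor2 and in Kif13a.

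Most promoters lay near 0% in all 4 animals. Of 15185 promoters with at least 5 kept CpGs, 0 were called with limma (0%), and 443 had an unadjusted p under 0.05. The median promoter read 0.973% in C14, 1.04% in C8, 0.995% in F3C30 and 0.989% in F3C9. Groups did not overlap at 31.4% of promoters, a share that order alone can also give. Gaps of at least 10 points were found at 5 higher in F3 and 11 higher in P. The 5 with the largest gap higher in F3 included Mfrp, a membrane protein of the retina, with 43.0% in C14, 40.5% in C8, 60.5% in F3C30 and 61.1% in F3C9, and Exoc3l, related to the exocyst, with 65.5%, 64.9%, 77.2% and 75.5%. The other 3 were Crs-ps, Gm2594 and Gm13217. The 5 higher in P were Gm8203, Gm38135, Gm44303, Gm37070 and AC159289.2, and Gm8203 had the largest gap with 29.6%, 72.2%, 6.43% and 7.45%. Exoc3l was higher in F3 in the decitabine lineage too, by 6.70 points, with D10, D11 and D13 at 75%, 74.1% and 74.6% and F3D1, F3D31 and F3D7 at 78%, 81.9% and 83.9%. Among those higher in P, Gm44303 and AC159289.2 were higher in the P animals of the decitabine lineage as well, with F3 minus P of -18.5 and -14.8 points, without overlap between its generations. Without C14, 427 promoters were called between C8 and the F3 animals, 362 higher and 65 lower in F3. With 1 animal in an arm, the spread in that fit comes from the F3 animals alone, and C8 is assumed to vary as they do.

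The gene lists gave 0 called promoters each, as did all promoters together, and are described by medians of the difference F3 minus P, beside -0.0137 points over all promoters. Without C8, as F3 minus C14, the median over all promoters was 0.0335 points. The 15 imprinted promoters had a median of -2.74, with 6 higher and 9 lower in F3. Without C8 the direction turned, with a median of 4.98 and 11 of 15 higher in F3. These counts hold the windows shared by Peg3 and Usp29 and by Sgce and Peg10 for each gene. The Peg3 window went from -7.61 to 8.66 points. Nap1l5, an imprinted nucleosome assembly gene, was the 1 of 15 whose groups did not overlap, where 31.4% of all promoters did not, with 13.6% in C14, 23.5% in C8, 4.07% in F3C30 and 4.31% in F3C9. In the decitabine lineage it read 18.5%, 27.4% and 27.3% in P and 16.9%, 9.09% and 8.24% in F3. The next largest differences were at Mcts2, with 13.6%, 33.1%, 14.2% and 6.00%, and at the Peg3 window given above. The 18 germline promoters had a median of -0.0666 with 9 in each direction, and their groups overlapped at all 18. Without C8 their median was 2.84, with 16 of 18 higher in F3. Rpl10l, Piwil2 and Asz1 had the largest differences, with C8 the highest animal at each.

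The 14 housekeeping promoters lay at medians of 0.795% to 1.01% in the 4 animals, with a median difference of -0.0702 points. Those of 6 genes that write or erase DNA methylation, among them Dnmt3b, Tet2 and Uhrf1, had a median difference of 0.316 points. Of 8 promoters of protamine, transition protein and late spermatid genes, Prm2, a protamine that packs sperm DNA, was the highly methylated one, with 86.5%, 73.4%, 75.0% and 61.4%, and Tnp1, a transition protein, read 17.7%, 43.1%, 19% and 27.6%. The 29 Hox promoters had a median difference of 0.159, the 17 clustered protocadherins -1.24 (1.23 without C8) and the 229 Zfp zinc finger genes 0.00991 points, with 0 called in each. Clustered histone genes were tested at 22 promoters, vomeronasal receptors at 2, the olfactory receptors at 1 and the epididymal beta-defensins at 0. The olfactory receptor, Olfr1033, read 73.2% in C14, 78.2% in C8, 72.6% in F3C30 and 34.3% in F3C9, a difference carried by F3C9.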

How the data were processed

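Spermatozoal DNA (100 ng per library, inserts of 40 to 280 bp) of 4 animals was analysed, with 6 others for comparison. The authors used CASAVA 1.8.2, Trim Galore 0.3.3, cutadapt 1.1 and Bismark 0.10.1 on mm10, per the labels, and deposited for each animal the count of methylated and unmethylated reads per CpG cytosine, strands apart, not normalized and without a read minimum. All positions matched CpGs of GRCm38. Strands were summed, and CpGs, regions and promoters were annotated with GENCODE M21. The logistic test follows the settings of the study, with Benjamini-Hochberg q-values. limma 3.58.1 (R 4.3.3) was run on log2((methylated + 1)/(unmethylated + 1)). Methylation is given in percent of reads. Both steps were tested on simulated data. There limma recovered large shifts of regions but not the smallest shift simulated, so its counts of 0 do not show that the groups are alike. All simulated animals had equal noise, whereas C8 scattered the most in the data. The simulation therefore does not give the recovery in these data. Animals of a group are separate mice. Named regions were those with the largest gaps between groups (10 each way) or differences within a group (8 each), and the 5 promoters each way with the largest gap. Of the regions so chosen, 1 is not reported here. Members and lists were chosen with earlier results of these data known. H19 was removed from the histone family, which its name pattern had caught. Alternatives were other minima, thinning, tests, thresholds, windows, a lineage term and each animal left out.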

Additional observations from a re-analysis of the deposited data

Results flagged for a closer look

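At 3 of the named regions, named promoters and promoters of the gene lists, the P and F3 animals of the vehicle lineage were apart one way and those of the decitabine lineage the other way, a difference between lineages that was not tested. At the region in the agouti gene (a), C14 and C8 read 78.6% and 87.2% and F3C30 and F3C9 51.5% and 52.6%. In the decitabine lineage F3 was higher by 15.5 points on average. Its groups barely parted, with 37.2% to 58.3% in P and 58.8% to 71.7% in F3. In the intron of Casz1, encoding a zinc finger factor, the P animals read 64.1% and 55.6% and the F3 animals 30.3% and 26.7%. In the decitabine lineage F3 was higher there by 17.6 points on average. Its groups were again close, with 24.2% to 31.6% in P and 34.1% to 59.4% in F3. At the promoter of Tbp, the TATA-binding protein, all levels were at or below 1.35%. P was higher there by 0.604 points in the vehicle lineage and F3 by 0.176 points in the decitabine lineage. How many of all regions and promoters behave in this way was not counted. Single CpGs of this kind numbered 23 of the 349 called with and without C8 and covered in all 10 animals, against 26 apart in the same direction in both lineages. The same counts over all CpGs were not made, so neither number is read as a result. Groups of 2 animals could not be tested for a single animal standing apart.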

How the results depend on the processing

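The 7467 CpGs called between P and F3 became 901 at a difference of 40 points, 22991 at 10 points and 0 with limma per CpG. With an overdispersion term they became 0, in a test that 2 animals a group could hardly pass. Leaving out each animal in turn gave 760 (without C8) to 47858 (without C14), with 14026 without F3C30 and 6249 without F3C9. A replicate block for the lineage, pairing each P male with its descendant, gave 8108 CpGs and 0 regions and promoters. The other alternatives gave 5009 to 8771. Calls between C14 and C8 fell to 23760 at 40 points. Calls between F3C30 and F3C9 fell to 3795 after thinning, 6557 with Fisher's exact test and 3587 at 40 points. Regions stayed at 0 called in all 10 alternatives, and promoters in 9, the exception being 427 without C14. The share of CpGs called at 60 to 70% was 6.52% by the mean of the 4 animals, 4.95% with levels from the 6 others, and 0.604% without C8. The share with the same direction in the decitabine lineage, 63.6%, was 38.0% for CpGs called without C8 and 41.8% for those called with and without it, both chosen after seeing the data. The median difference at the imprinted promoters, -2.74 points, was 4.98 without C8, and that at the germline promoters, -0.0666, was 2.84, both also computed after seeing the data. The mean difference was -0.116 to 0.0899 points with each animal left out, and 0.0741 as methylated reads over all reads. With 2 animals a group, single libraries decided most counts, and the depth of C8, the shallowest, limited which CpGs were kept.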
